A study of Mus musculus with 3 samples.

Results

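The genes of the urea cycle and of amino acid catabolism were followed in tumours of AID transgenic (AID Tg) mice. AID, activation-induced cytidine deaminase, turns cytosine in DNA into uracil. The group was set by name and not by measured values: 38 genes were listed, and 37 of them were found on the array, 36 by their gene name or a synonym and Haao by its description. They were read by 48 of the 41174 probes and made up 37 of the 27677 genes on the design. Amt, which codes for a subunit of the glycine cleavage system, was not matched to a probe. It has no array value here and enters the promoter search only. Per the labels, RNA of 3 tissue pairs was hybridised to 2-colour Agilent mouse arrays, 1 array per organ. The liver array paired the liver tumour of an AID Tg mouse with nontumour liver of that mouse, and the stomach array paired a gastric tumour of an AID Tg mouse with nontumour gastric tissue of that mouse. The lung array paired a lung tumour of an AID Tg mouse with normal lung of a Wt mouse, so that there the genotype differed together with the tissue, whereas both tissues of the other pairs carried the transgene. The sources used here give neither the promoter of the transgene nor the strain or age of the mice.

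The liver is the main site of the urea cycle, which turns ammonia from amino acid breakdown into urea, and liver cells close to the portal vein carry most of it. Liver cells around the central vein take up the ammonia that is left and fix it as glutamine. Most pathways that break down tyrosine, tryptophan, histidine, methionine and glycine are also strongest in liver, while branched-chain amino acids are broken down in many tissues.

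Each organ had 1 array with no repeat and no dye swap, so groups were of 1 sample, no test was possible and the values describe these arrays. Errors are the standard deviation (SD) between a gene's probes or, for a gene with 1 probe, the error of the scanner software's model on the log2 scale. They cover measurement and not differences between mice. Signals are normalized intensities, and ratios are log2(Cy5/Cy3), so that a gene is called Cy5-high above 0 and Cy3-high below 0. The sources disagree on which dye held the tumour. According to the labels the tumour RNA carried Cy3. The authors' deposited table, in contrast, gives Cy5-high spots under its headings for genes up in tumour, which makes Cy5 the likely channel of the tumour. If the labels hold instead, Cy5 carried the nontumour or normal tissue and every direction given here turns.

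Gene spots well above background made up 82.3% to 84.1% in Cy3 and 88.8% to 90.0% in Cy5. Different probes of a gene differed by a pooled SD of 0.18 log2 units in liver (8142 genes) and 0.26 in stomach (8047 genes). Of the 48 probes of the group, 47 in liver and 43 in stomach were well above background in both channels, and none was saturated. For genes with 1 probe, the scanner error was larger than the ratio itself for 9 of 28 genes in liver and 14 of 27 in stomach. Tissue markers matched the labelled organs on the arrays read here: the 5 of 8 hepatocyte markers measured on the liver array had a summed signal of 136707 in Cy3 and 99834 in Cy5 (the remaining markers failed a spot filter), and the 8 gastric gland markers on the stomach array summed to 424388 in Cy3 and 55788 in Cy5. Of 7 lung epithelium markers, 5 were listed for lung in the authors' deposited table, all of them Cy3-high.

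The level of these genes set the liver apart from the stomach. The signals of each gene in both channels are shown in the plot of signals by array. Of the 36 genes measured on both arrays, 31 were brighter on the liver array, 24 of them at least 4-fold, and the median gene was 10.9-fold brighter in liver. The median log2 brightness of the group was 11.4 in liver, against 7.16 over all genes, and 7.70 in stomach, against 7.18. Mat1a, which makes S-adenosylmethionine in liver, had signals of 19811 in Cy3 and 14669 in Cy5 there, against 67.7 and 74.6 in stomach. Cps1, which makes carbamoyl phosphate from ammonia at the entry to the urea cycle, had 20911 and 19156 in liver, against 110 and 117 in stomach. Such stomach signals lie so close to the offset of 50 added in the background correction that no exact fold or rank is read from them, and the median fold above holds such genes too. Genes brighter on the stomach array were Glul, Oat, Ido1, Gldc and Arg2. Of these, Arg2 lay near that offset on both arrays (66.5 in liver and 73.8 in stomach), so its order is not read. Between arrays, the whole distribution of spot brightness was made equal (quantile normalization of the mean log2 signal of both channels). The medians over all genes are therefore alike by construction. Folds between the organs follow a gene's rank among all spots of each array and are not measured amounts of RNA. Each organ is 1 array, so these levels carry no error between animals.

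**Figure D1:**
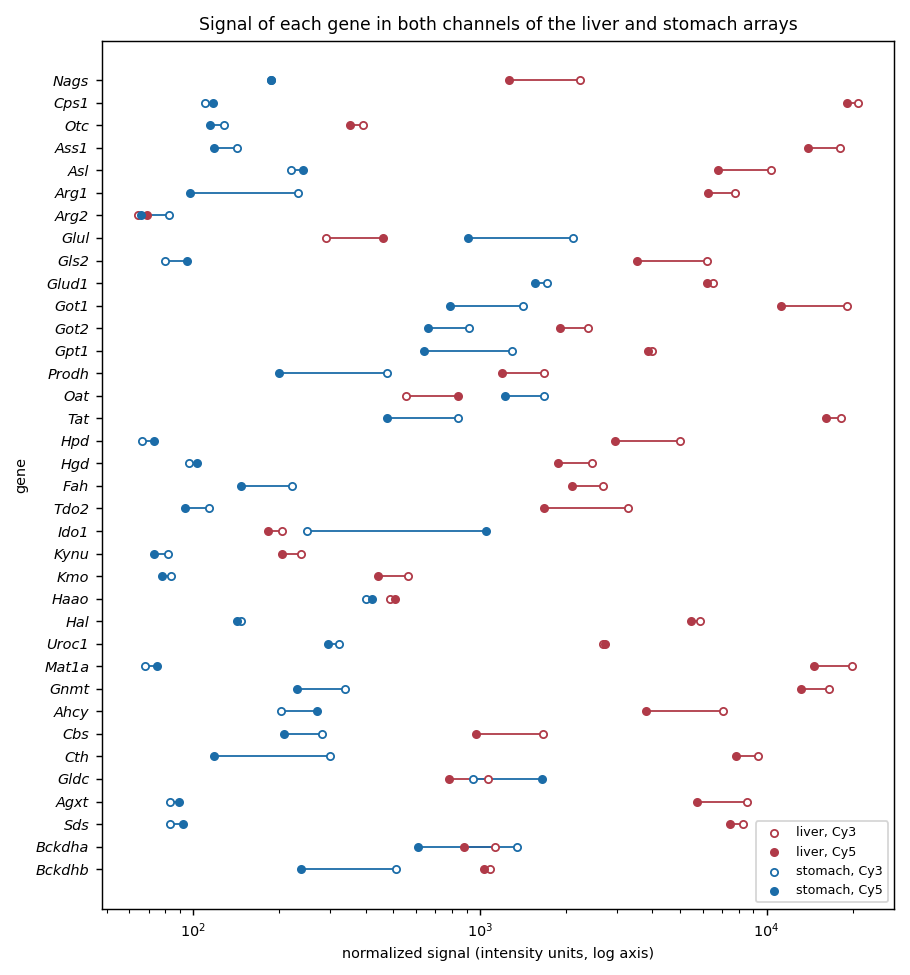
Normalized signal (log axis) of the 36 genes measured on both arrays, in order of pathway, with open circles for Cy3 and filled circles for Cy5, red for liver and blue for stomach, 1 array each. In 31 of 36 genes the liver signal lies above the stomach signal, and the horizontal gap between open and filled circles, which is the ratio, is small beside the gap between organs for most genes.

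On the liver array the group lay to the Cy3 side by small amounts. Of 37 genes, 32 had a ratio below 0, with a median of -0.32, while over all 25606 genes measured 47.1% were below 0 and the median was 0.01. No gene of the group was 2-fold apart, against 0.223% of all genes (0.152% Cy5-high and 0.0703% Cy3-high); at 1.5-fold, 8 were Cy3-high and 2 Cy5-high, against 0.508% and 0.851% of all genes (1.36% in either direction). The group was brighter in liver than all genes (median log2 brightness 11.4 against 7.16), and the offset understates ratios of dim genes. The shares over all genes are therefore not matched for brightness. Tdo2, Gls2, Nags and Got1 were among the Cy3-high genes and Glul and Oat were the Cy5-high genes. In a tissue sample, fewer cells of a type and less RNA per cell cannot be told apart. The shift of the whole group depended on the normalization: with the array centred on its median and no loess curve, 18 of 37 genes lay above 0 and the median was -0.02. Of the 8 Cy3-high genes, Tdo2 (-0.60) alone was then still 1.5-fold apart, and both Cy5-high genes were, Glul at 0.87 and Oat at 0.92. The hepatocyte markers, which include secreted proteins outside these pathways, had a median of -0.31, with Trf lowest at -0.53 and Ttr highest at 0.53, and 0.09 with median centring. Their part in the result was not tested.

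**Figure D2:**
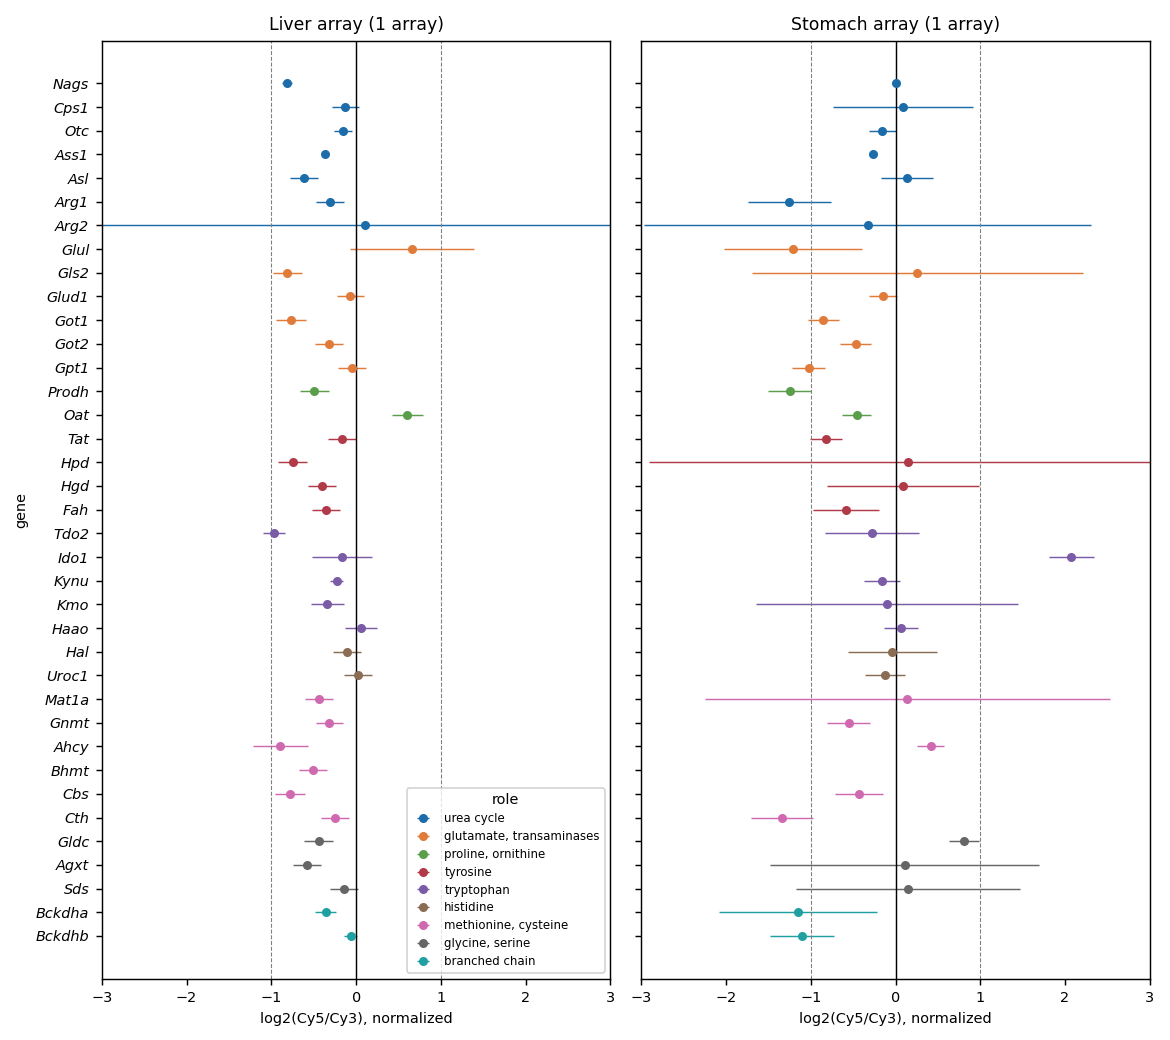
Normalized log2(Cy5/Cy3) of each gene on the liver array (left, 37 genes) and the stomach array (right, 36 genes), 1 array each, coloured by role, with bars for the SD between probes or the scanner error for genes with 1 probe; bars of Arg2 and Hpd that run past the axis are cut off. Dashed lines mark a 2-fold difference, which no gene reaches in liver and 8 genes reach in stomach.

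Among the urea cycle genes, the liver signals of Nags were 2232 in Cy3 and 1269 in Cy5, a ratio of -0.81 (SD 0.06 between 2 probes). Nags makes N-acetylglutamate, the activator that Cps1 needs. Cps1 itself had signals of 20911 and 19156 (ratio -0.13, scanner error 0.16), a difference smaller than its error. Otc, which makes citrulline from carbamoyl phosphate and ornithine, had 392 and 353 as the means of 3 probes (-0.15, SD 0.11). Asl, which splits argininosuccinate into arginine and fumarate, had 10388 and 6771 (-0.62, scanner error 0.17) and Ass1 had 18007 and 13935 (-0.37, SD 0.03 between 2 probes). Arg1, the arginase of liver cells that releases urea, had 7744 and 6261 (-0.31, scanner error 0.16). Arg2, the mitochondrial arginase, lay near background at 64.2 and 68.9 and was well above it in Cy5 only, with a scanner error of 4.55 that leaves its ratio unread. Across the 7 genes, 6 lay below 0, and Nags and Asl were the 2 at or beyond 1.5-fold. With median centring Nags had -0.46 and Asl -0.22, both inside the 1.5-fold limit, and Cps1, Otc, Ass1 and Arg1 came to lie above 0, between 0.02 and 0.28.

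Glutamine metabolism split by enzyme on the liver array. Gls2, the liver glutaminase that frees ammonia from glutamine, had signals of 6200 in Cy3 and 3531 in Cy5 (ratio -0.81, scanner error 0.17). Glul, the glutamine synthetase that does the reverse, had 291 and 460 as the mean of 2 probes (0.66, SD 0.73). The SD of Glul is larger than its ratio because its probes disagreed in size: the brighter had 590 and 1336 (1.18) and the dimmer 143 and 158 (0.14). The brighter probe lies at 153870358 to 153870417 and the dimmer at 153869393 to 153869452 on chromosome 1 in the scanner file's coordinates, for which the sources used here give no build. In the authors' deposited table, which uses the scanner software's ratio and lists spots past the authors' threshold, only the brighter probe of Glul was listed for liver, 2.37-fold Cy5-high. Oat, which moves nitrogen between ornithine and glutamate, had 554 and 841 (0.60, scanner error 0.18), and the authors' deposited table lists it at 1.58-fold.

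The promoters of Glul and Oat are shown here because these genes were the Cy5-high pair of the group in liver, with that of Tdo2 as the lowest gene of the group in liver and that of Gldc as the highest in lung. Each is the 250 bases before the gene's start, from RefSeq with build GRCm38.p6, written 5′ to 3′ on the strand of the gene, with capitals for letters that match a motif named below. The windows are Glul on chr1:153899679-153899928 (plus strand), Oat on chr7:132576399-132576648 (minus strand), Tdo2 on chr3:81975729-81975978 (minus strand) and Gldc on chr19:30175442-30175691 (minus strand).
Glul: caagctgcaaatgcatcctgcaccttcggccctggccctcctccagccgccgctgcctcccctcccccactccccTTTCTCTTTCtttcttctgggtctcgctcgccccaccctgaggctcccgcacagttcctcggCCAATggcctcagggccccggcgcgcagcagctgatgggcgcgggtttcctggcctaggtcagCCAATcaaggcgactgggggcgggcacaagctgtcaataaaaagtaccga
Oat: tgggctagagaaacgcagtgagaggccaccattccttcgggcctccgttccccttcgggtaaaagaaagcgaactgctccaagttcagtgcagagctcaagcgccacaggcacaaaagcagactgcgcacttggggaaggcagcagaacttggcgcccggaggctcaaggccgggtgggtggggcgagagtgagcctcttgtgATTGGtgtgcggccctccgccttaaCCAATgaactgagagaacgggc
Tdo2: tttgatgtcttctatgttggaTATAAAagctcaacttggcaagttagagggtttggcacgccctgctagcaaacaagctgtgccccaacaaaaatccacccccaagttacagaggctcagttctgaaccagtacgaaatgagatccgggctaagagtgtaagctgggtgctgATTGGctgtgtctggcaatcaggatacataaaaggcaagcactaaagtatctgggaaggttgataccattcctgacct
Gldc: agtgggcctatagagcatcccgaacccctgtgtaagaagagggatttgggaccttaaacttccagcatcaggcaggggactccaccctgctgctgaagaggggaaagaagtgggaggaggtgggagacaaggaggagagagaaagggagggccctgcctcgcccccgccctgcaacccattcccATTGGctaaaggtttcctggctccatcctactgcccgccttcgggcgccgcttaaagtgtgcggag
All of these windows hold CCAAT, the box bound by the factor NF-Y, which was chosen for the search after the sequences had been read. Counted from the gene's start, it begins at -113 and -50 in Glul and at -22 in Oat, and on the other strand (as ATTGG) at -47 in Oat, -78 in Tdo2 and -66 in Gldc. Of the 27 genes of the group with a promoter entry, Amt among them, 15 hold it (55.6%), against 34.5% of 27025 promoters. That count includes the windows of Glul, Oat, Tdo2 and Gldc, from which the box was chosen, so no excess is read from these shares. The window of Glul also holds the core letters of an interferon-stimulated response element on the other strand at -175 (TTTCTCTTTC, a pattern in 3.0% of all promoters), and that of Tdo2 holds TATAAA at -229 (13.0%). The TCF/LEF letters ATCAAAG, found in 3.2% of promoters, match in Haao, Hal and Nags and in neither Glul nor Oat within this window. The other motifs searched, on both strands and with overlaps allowed, were TTCNNNGAA, TTGCNNAA, CACGTG and TGATGNAA, which matched 1 or 2 promoters of the group each. A match is a description of letters and not a binding site.

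Genes of the liver zones were set beside these values. Of 8 periportal genes, which share Cps1, Ass1, Arg1, Hal, Sds and Gls2 with the group, 7 lay below 0 with a median of -0.23, from Gls2 at -0.81 to G6pc, the last step of glucose release, at 0.48. Of 8 perivenous genes, which share Glul and Oat with the group, 6 lay above 0 with a median of 0.29, from Cyp1a2, a cytochrome P450, at -0.32 to Glul at 0.66. The summed signals of the periportal list were 121983 in Cy3 and 98817 in Cy5, and those of the perivenous list were 5964 and 6560. The other perivenous genes outside the group are named here after their values were seen. The ammonium transporter Rhbg was dim (85.0 and 120) and had 0.50 with a scanner error of 0.97. The secreted protein Lect2 had 0.30 and Slc1a2 0.28 (SD 0.30 between 4 probes). Tbx3 had 0.09 (SD 0.24 between 2 probes). Cyp2e1, the brightest gene of the list with signals of 3995 and 3955, had -0.01 (scanner error 0.16). With median centring both lists lay above 0, at 0.17 for periportal genes (7 of 8 above 0) and 0.39 for perivenous genes (7 of 8), so the sides of the periportal list turned and the order of the medians did not. Lists this short, picked with these values known, show the order on 1 array and no more.

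**Figure D3:**
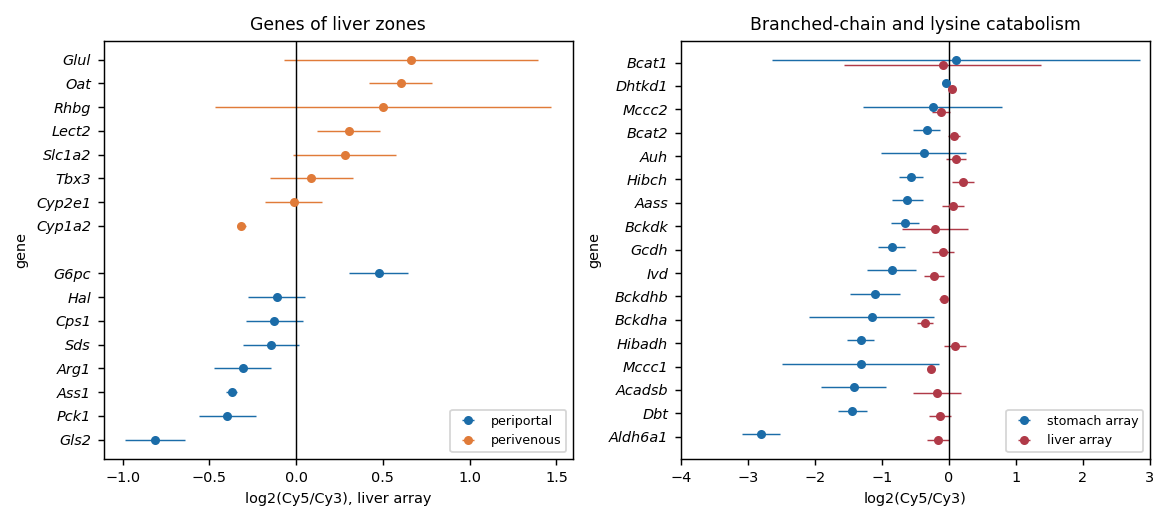
Left, log2(Cy5/Cy3) on the liver array of 8 periportal genes (blue) and 8 perivenous genes (orange), with 6 perivenous genes above 0 and 7 periportal genes below. Right, ratios of 17 genes of branched-chain and lysine breakdown on the stomach array (blue) and the liver array (red), where 16 of 17 lie below 0 in stomach; bars are the SD between probes or the scanner error, and each organ is 1 array.

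The aminotransferases differed among themselves in liver. Got1, the cytosolic aspartate aminotransferase, had signals of 19091 in Cy3 and 11210 in Cy5 (ratio -0.77, scanner error 0.17), whereas its mitochondrial partner Got2 had 2375 and 1901 (-0.32, scanner error 0.17). Gpt1 (current symbol Gpt), the alanine aminotransferase, and Glud1, glutamate dehydrogenase, had ratios of -0.05 and -0.07, within their scanner errors of 0.16. With median centring Gpt1 and Glud1 lay above 0, at 0.33 and 0.32.

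Of the 9 genes of aromatic amino acid breakdown in liver, 8 lay below 0, and Tdo2 and Hpd were 1.5-fold apart. With median centring 3 of the 9 lay above 0, and the 4 tyrosine genes had a median of -0.0071. Tdo2, the liver enzyme that opens the ring of tryptophan, had signals of 3286 in Cy3 and 1677 in Cy5, a ratio of -0.97 (SD 0.13) with its 2 probes at -0.88 and -1.06. It had the lowest ratio of the group in liver, and its range over 7 other settings was -1.06 to -0.60. Ido1, named Indo on the array, opens the same ring in other tissues and is induced by interferon; it had 205 and 183 in liver (-0.17, scanner error 0.36). The later tryptophan enzymes Kynu, Kmo and Haao had ratios between -0.34 and 0.05. For tyrosine, Hpd, which makes homogentisate, had 4986 and 2967 (-0.75, scanner error 0.17). Tat, which starts the pathway, had -0.17, and Hgd and Fah, which finish it, had -0.40 and -0.35. Histidine breakdown was near 0 with loess, with Hal at -0.11 and Uroc1 at 0.02, whereas median centring gave 0.27 and 0.39.

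All 6 genes of methionine and cysteine metabolism lay below 0 in liver, and 4 of 6 with median centring. Ahcy, which splits S-adenosylhomocysteine, had mean signals of 7070 in Cy3 and 3794 in Cy5 (ratio -0.90, SD 0.32), and its 3 probes gave -0.74, -0.69 and -1.27. Cbs, which joins homocysteine to serine, had 1657 and 968 (-0.78, scanner error 0.18). Bhmt, which remethylates homocysteine, had -0.51, Mat1a -0.43, Gnmt, which methylates glycine, -0.31 and Cth, which makes cysteine, -0.25. Agxt, which detoxifies glyoxylate, stood at -0.58, just inside the 1.5-fold limit, and Prodh, which starts proline breakdown, at -0.50. Gldc, which splits glycine, had -0.44, Sds -0.14, and the branched-chain dehydrogenase subunits Bckdha and Bckdhb -0.36 and -0.07.

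The authors' deposited table, made from the scanner software's ratios of the same array, lists 13 genes of the group as Cy3-high in liver (17 spots, 1.41-fold to 2.62-fold) and 2 as Cy5-high, Glul and Oat. Over all genes 1.36% had a spot among the Cy3-high and 1.75% among the Cy5-high liver spots. Besides the genes at 1.5-fold above, the Cy3-high genes were Agxt, Bckdha, Bhmt, Gldc and Prodh.

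On the stomach array the group showed larger ratios on a lower level. Of 36 genes measured, 23 lay below 0 with a median of -0.16, against 49.8% and 0.00 over all 25322 genes. At 2-fold, 7 genes were Cy3-high and 1 was Cy5-high, against 1.41% and 0.873% of all genes (2.29% in either direction). At 1.5-fold these numbers were 10 and 2, against 3.29% and 3.23% of all genes (6.52% in either direction). With median centring 2 genes were Cy3-high and 2 Cy5-high at 2-fold, against 235 and 1017 of all 25322 genes. With loess the Cy3-high genes were Cth, Arg1, Prodh, Glul, Bckdha, Bckdhb and Gpt1, and the Cy5-high gene was Ido1. With median centring Cth (-1.11) and Arg1 (-1.12) were still 2-fold Cy3-high, whereas Prodh (-0.86), Bckdhb (-0.68), Glul (-0.55), Bckdha (-0.52) and Gpt1 (-0.40) were not, and Gldc (1.49) joined Ido1 (2.58) on the Cy5 side. Bhmt was not well above background in either channel of the stomach array and has no value there. The authors' deposited table lists 12 genes of the group as Cy3-high in stomach, against 4.32% of all genes, and 3 as Cy5-high (Ahcy, Gldc and Ido1), against 5.17%.

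Of the urea cycle in stomach, Arg1 alone was 2-fold apart. Its signals were 232 in Cy3 and 97.5 in Cy5 (ratio -1.25, scanner error 0.49), a dim spot that the authors' deposited table gives as 4.12-fold Cy3-high. Cps1 (110 and 117, ratio 0.09, scanner error 0.82) and Otc (128 and 115, ratio -0.16, SD 0.16 between 2 of its 3 probes) were dim, each with a ratio no larger than its error. Ass1 had -0.27, Asl 0.13 and Nags 0.01, and Arg2 had 82.8 and 65.8 with a scanner error of 2.64.

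Glul was bright in stomach and Cy3-high, opposite to liver. Its mean signals were 2109 in Cy3 and 910 in Cy5 (ratio -1.21, SD 0.81), and the brighter probe had 12450 and 3606 (-1.79) while the dimmer had 357 and 230 (-0.64). Both probes pointed the same way, and both are in the authors' deposited table, at 3.44-fold and 1.75-fold. Oat had 1681 and 1224 (-0.46, scanner error 0.17), which median centring turned to 0.25. Gpt1 had 1299 and 638 (-1.03, scanner error 0.19) and Got1 1417 and 785 (-0.85, scanner error 0.18). Got2 had -0.47 and Glud1 -0.14, both of which lay above 0 with median centring, at 0.13 and 0.59. Gls2, the liver glutaminase, was near background in stomach, well above it in Cy5 only, and its scanner error of 1.95 leaves its ratio unread.

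Prodh had stomach signals of 473 in Cy3 and 199 in Cy5 (ratio -1.25, scanner error 0.26). Tat had 840 and 475 (-0.82, scanner error 0.19) and Fah 221 and 147 (-0.59, scanner error 0.39). Hpd was well above background in Cy5 only, with a scanner error of 3.05, and Hgd had 0.09 with a scanner error of 0.90, so neither ratio stands clear of its error. With median centring all 4 tyrosine genes lay below 0, Tat at -0.27 and Fah at -0.37.

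Ido1 had the highest ratio of the group on either array. Its stomach signals were 250 in Cy3 and 1050 in Cy5, 4.21-fold apart (ratio 2.07, scanner error 0.26), and it ranged from 2.07 to 2.58 over the 7 other settings. The authors' deposited table gives the same spot as 5.69-fold Cy5-high. Of 8 interferon gamma response genes, 7 lay above 0 in stomach with a median of 0.34, and 2 were at least 2-fold Cy5-high, Gbp2 at 1.09 (scanner error 0.20) and Cxcl9 at 1.01 (scanner error 0.80, Cy3 signal 78.8), of which 1 was left with median centring; their summed signals were 1516 and 2347. Ifng itself was lowest at -0.05, with signals of 107 and 103. The 8 macrophage markers had a median of 0.07, from Chil3 at -0.72 to Lyz2 at 1.18, and sums of 5815 and 4552. The part of either list in the Ido1 ratio was not tested. The other tryptophan genes stood between -0.28 (Tdo2, SD 0.56 between 2 probes of opposite sign) and 0.07.

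Cth had the lowest stomach ratio of the group, with signals of 300 in Cy3 and 119 in Cy5 (-1.34, scanner error 0.37). Gnmt had 339 and 231 (-0.55, scanner error 0.25), Cbs -0.43 and Mat1a 0.14 with a scanner error of 2.39. Ahcy went the other way at 203 and 271 (0.42, SD 0.16 between 3 probes). Of the glycine and serine genes, Gldc, the glycine decarboxylase, had 944 and 1654 (0.81, scanner error 0.18), while Agxt and Sds were dim, at 0.11 and 0.15 with scanner errors over 1.3.

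Both subunits of the enzyme that commits branched-chain amino acids to breakdown were Cy3-high in stomach. Bckdha had mean signals of 1343 in Cy3 and 607 in Cy5 (ratio -1.15, SD 0.93), with 2392 and 684 at one probe (-1.81) and 754 and 538 at the other (-0.49). Bckdhb had 511 and 239 (-1.10, SD 0.38), with its probes at -1.37 and -0.83. The probes of each gene agreed in direction, and all 4 are in the authors' deposited table.

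The other genes of branched-chain and lysine breakdown lay on the same side in stomach. Of 15, 14 had ratios below 0 with a median of -0.66, and 5 were at least 2-fold Cy3-high. Aldh6a1, a dehydrogenase late in valine breakdown, had signals of 2606 in Cy3 and 375 in Cy5 (-2.80, scanner error 0.28). Dbt, the core of the same complex as Bckdha and Bckdhb, had 886 and 327 (-1.44, scanner error 0.22) and Acadsb, an acyl-CoA dehydrogenase of isoleucine breakdown, 244 and 91.2 (-1.42, scanner error 0.49). Mccc1 at -1.32 and Hibadh at -1.31, named here after their values were seen, were the other two. In liver the same list had a median of -0.09 with 9 of 15 below 0 and none at 2-fold. With median centring the stomach median was -0.34, with 3 genes at 2-fold and 2 of 15 above 0.

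Tissue markers moved with these stomach ratios. Every one of the 8 gastric gland markers was Cy3-high by 2-fold or more, from Chia1 at -5.26 to Tff1 at -1.05, with a median of -4.15. The 7 smooth muscle markers lay below 0 with a median of -1.99, from Cnn1 at -2.51 to Actg2 at -0.28 and with sums of 16918 in Cy3 and 5046 in Cy5. Squamous markers had a median of -1.62, from Lor at -4.20 to Ivl at 1.16, with sums of 34596 and 6411. The 4 exocrine pancreas markers had a median of -1.12, from Clps at -2.68 to Pnlip at -0.08, with sums of 141333 and 22336. Clps alone made up 140619 and 21932.5 of these sums, and the other markers were dim. The stricter filter on saturation removed Clps and left 3 markers with a median of -0.18. Hepatocyte markers were dim there, with sums of 2263 and 1115, from Apoa1 at -3.24 to Alb at 0.22. Their part in the ratios of Arg1, Cth, Prodh, Glul and the branched-chain genes was not tested.

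Of the other pathway genes and regulators measured in stomach, 8 of 68 pathway genes were 2-fold Cy3-high and 0 Cy5-high. Over all genes these shares were 1.41% and 0.873%. The 8 include the 5 branched-chain and lysine genes given above. With median centring 5 of the 68 were Cy3-high and 2 Cy5-high. The median of the 68 genes was -0.08 with loess. Besides the branched-chain genes, Hdc, which makes histamine from histidine, stood at -2.13 (scanner error 0.38) and Grhpr, which reduces glyoxylate, at -1.67 (scanner error 0.22). Gpt2, the mitochondrial partner of Gpt1, had -1.24 and was named after its value was seen. In liver the 68 genes had a median of -0.10, with 46 below 0, and Psph, the last enzyme of serine synthesis, was the 1 gene at 2-fold, Cy5-high with 726 and 1592 (1.13, SD 0.03 between 2 probes). The 14 regulators, mostly transcription factors together with the glucagon receptor Gcgr, had medians of -0.10 in liver and 0.03 in stomach. In stomach Klf15, which drives amino acid breakdown in fasting, had -1.51 (SD 0.92 between 2 probes) and Onecut1 1.09 (SD 1.28 between 2 probes).

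For lung the authors' deposited table lists 10 of the 37 genes, 5 as Cy5-high and 5 as Cy3-high. Over all genes 6.84% had a Cy5-high and 12.4% a Cy3-high lung spot, and 19.1% had either. The table starts at 2-fold, so a gene that is not listed has no value here, and its signals are the scanner software's own. They are joined to genes by spot number, and the listed lung brightness correlated with that of the same spot numbers on the liver and stomach arrays over 6350 spots (Pearson r = 0.655 and 0.805 on log2 values, across spots that share a probe).

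**Figure D4:**
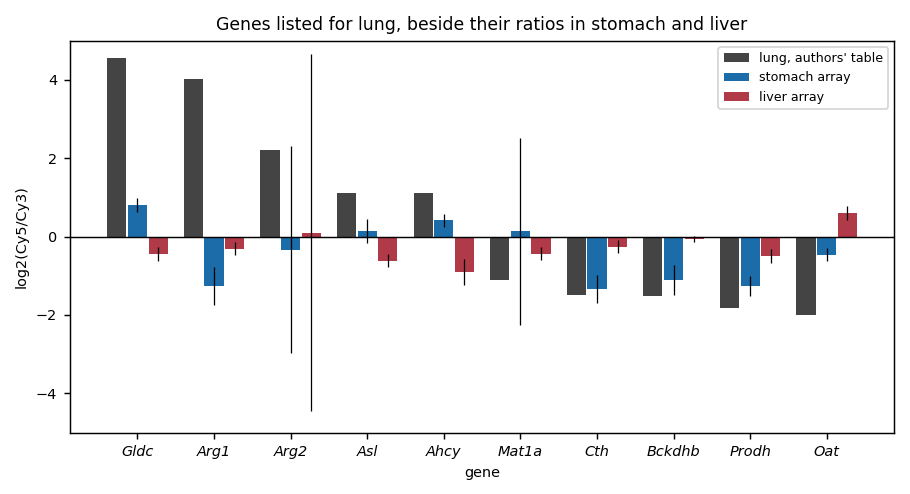
Log2(Cy5/Cy3) of the 10 genes listed for lung in the authors' deposited table (dark bars, scanner software's ratio, no error given), beside their normalized ratios on the stomach array (blue) and the liver array (red), with lines for the SD between probes or the scanner error. Gldc and Arg1 are the tallest lung bars at 4.55 and 4.02, and Oat is the lowest at -1.99.

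The Cy5-high lung genes were 3 genes of arginine metabolism, Gldc and Ahcy. In the authors' deposited table Gldc had lung signals of 178 in Cy3 and 4200 in Cy5, 23.4-fold apart (log2 4.55). Arg1 had 433 and 6970, 16.2-fold apart (4.02), and Arg2, on another chromosome and with a probe of its own, had 234 and 1080, 4.60-fold apart (2.20) in the authors' deposited table. Asl, which makes arginine, had 2100 and 4590, 2.18-fold apart (1.13) in the authors' deposited table, and 1 of the 3 Ahcy probes had 1450 and 3150 (2.18-fold, 1.12). On the stomach array Gldc had 0.81 and Ahcy 0.42 to the Cy5 side, Arg1 -1.25 to the Cy3 side, and Asl (0.13) and Arg2 (-0.33) lay within their errors. Over all genes 1.44% were Cy5-high at 1.5-fold or more in stomach and listed Cy5-high for lung.

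The Cy3-high lung genes belonged to proline, cysteine, methionine and branched-chain metabolism. In the authors' deposited table Oat had lung signals of 19500 in Cy3 and 4910 in Cy5, 3.98-fold apart (-1.99). Prodh had 4360 and 1230 (3.54-fold, -1.82), Cth 735 and 262 (2.81-fold, -1.49) and Mat1a 544 and 255 (2.14-fold, -1.10) in the authors' deposited table. For Bckdhb, 1 of 2 probes was listed, with 1670 and 586 (2.84-fold, -1.51). Prodh, Cth and Bckdhb were Cy3-high in stomach as well, at -1.25, -1.34 and -1.10. Oat had -0.46 there, which turned to 0.25 with median centring, and Mat1a 0.14, within its error. Over all genes 1.14% were Cy3-high at 1.5-fold or more in stomach and listed Cy3-high for lung.

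Of 10 other genes of serine and glycine metabolism, 4 were listed Cy5-high for lung and none Cy3-high in the authors' deposited table. Over all genes these shares were 6.84% and 12.4%. The genes of this list that are not listed there have no lung value, so no side is given for the list as a whole. Psph was listed by 2 probes, with a mean log2 ratio of 1.04. The other three, named after their values were seen, were Sdsl at 3.13, Psat1, which makes phosphoserine, at 2.02 and Gcsh, the carrier protein that works with Gldc, at 1.45 in the authors' deposited table. Of the 15 branched-chain and lysine genes, 2 were listed, both Cy3-high: Aldh6a1 at -1.66 and Dbt at -1.29, again named after their values were seen. With 12.4% of all genes listed Cy3-high, that count is not read as a trait of the list. Of the 14 regulators, 4 were listed Cy5-high and 3 Cy3-high, against 6.84% and 12.4% of all genes. Ctnnb1 stood at 1.16 and Cebpb at -1.28, by 2 probes each in the authors' deposited table.

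Lung tissue markers moved beside these genes in the authors' deposited table. Of 7 lung epithelium markers 5 were listed, all Cy3-high, with Sftpa1, a surfactant protein, lowest at -4.29 and Sftpb highest at -2.71. Of 8 squamous markers 4 were listed Cy5-high, from Lor at 1.92 to Ivl at 4.09, and of 8 macrophage markers Cd14 was Cy5-high at 1.45 and Lyz2 Cy3-high at -3.10. Of 8 hepatocyte markers, 3 were Cy5-high, with Apob highest at 1.72, and Trf was Cy3-high at -1.06. Of 8 interferon gamma genes 5 were listed, all Cy3-high, and Ido1 was not listed. Their part in the lung ratios of Arg1, Arg2 and Gldc was not tested.

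Of the 36 genes measured in liver and stomach, 16 had opposite signs (44.4%), a share near the 41.1% over all 24766 genes measured on both, and the ratios of the 2 arrays had a Pearson r of -0.20 over these genes, which is given as a description of 2 arrays. Got1 was beyond 1.5-fold to the Cy3 side on both, at -0.77 and -0.85, but on neither with median centring (-0.37 and -0.20). Glul and Oat were on the Cy5 side in liver and on the Cy3 side in stomach, and Gldc was on the Cy3 side in liver and on the Cy5 side in stomach and lung. Whether these organs differ was not tested, since each has 1 array.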

How the data were processed

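Per the labels' protocols, total RNA was prepared with a Qiagen kit, and Agilent's linear amplification kit was used to amplify it and attach Cy3 or Cy5. The scanner software was Agilent Feature Extraction, version 8.5.1.1, per the submitters' processing notes. The deposited intensity columns of the liver and stomach arrays hold spot means and local background medians in both channels, without normalization, per the file headers. The deposited log10 ratio (red, Cy5, over green, Cy3) comes from signals that the scanner software corrected for background and dye, per the file headers. The deposited error of that ratio, on the log10 scale, is a score from the scanner software's own model, per the file headers. A p-value per spot, deposited by the authors and resting on that error model, was used for no call. The deposited flags for background, saturation and outliers are 0 or 1, per the file headers. The authors' deposited table holds log10 ratios and signals in 6 lists, 2 per organ. Its liver and stomach ratios equalled the scanner files' ratios at the same spots. For lung, 4064 Cy3-high and 2288 Cy5-high spots are listed; at 1776 Cy3-high spots the signal columns are shifted by their place in the table and were read by the ratio they give, and 2 spots could not be matched that way.

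Spot means and backgrounds went through normexp correction (offset 50) and a loess curve within each array, with control spots at weight 0, in limma 3.58.1 under R 4.3.3. The step was checked on simulated data, with known changes on bright spots only and the difference between channels removed. That check covers neither changes at dim spots nor the choice between loess and median centring. For the channel signals shown, the distribution of average log2 brightness was then made equal between arrays by quantile normalization, which leaves the ratios unchanged. Control and outlier spots were left out. A probe was kept if 1 channel or more was well above background and 1 or more was unsaturated, and a gene's value is the mean over its probes. Because of the offset, ratios of dim genes are understated. A ratio of a gene above background in 1 channel only is not read. Of 41174 probes, 79.4% were named through RefSeq (assembly GRCm38.p6, for names and promoters), and the rest kept the file's name. Other steps used Python 3.11.15, numpy 2.4.6 and pandas 2.3.3.

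No test was made, since each organ has 1 array; the number of arrays limits the precision, and genes were counted at 2-fold, with 1.5-fold as an alternative. The genes, the further lists and the markers were chosen with earlier results of these data known. Values are given for each gene of the group at 1.5-fold or listed for lung, for the arginases, Otc, Cps1 and Glul, for other pathway genes and regulators at 2-fold or listed by 2 probes (at most 6 per organ), and for the highest and lowest gene of a marker list. Marker levels at 0 do not occur on these arrays, so markers are described by signal. The alternatives were a normexp offset of 10, the scanner software's ratio, median centring without loess, 2 other filters on dim probes, a stricter filter on saturation and the brightest probe of a gene.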

Additional observations from a re-analysis of the deposited data

Results flagged for a closer look

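For 5 genes the ratio lay on opposite sides in a pair of organs, by 1.5-fold or more in each. No share of all genes with such a pattern is given here, so the count is not read as a trait of the group. Every organ has 1 array, so none of these differences was tested, and the lung values are those of the authors' deposited table. Arginine genes gave 2 of them. Asl had -0.62 in liver and 1.13 in lung, and Arg1 had -1.25 in stomach and 4.02 in lung. Glul had 0.66 in liver and -1.21 in stomach, with both of its probes on the same side within each organ but an SD of 0.73 between them in liver. Oat had 0.60 in liver and -1.99 in lung. Ahcy had -0.90 in liver, where its 3 probes lay on the same side, and 1.12 in lung, where 1 of 3 probes was listed. With median centring Asl (-0.22) and Ahcy (-0.52) in liver and Glul (-0.55) in stomach were under 1.5-fold, so that of these 5 genes Arg1 and Oat alone met the limit in both organs, with the lung values as listed.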

How the results depend on the processing

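No paired analysis was possible because each organ has 1 array and no result comes from a test. Median centring without loess moved the most values: the liver median of the group went from -0.32 to -0.020, and 2-fold genes in stomach went from 8 to 4 (2 Cy3-high instead of 7, and 2 Cy5-high instead of 1). Of the 73 single values it moved 52, the scanner software's ratio 9, offset 10 moved 1 and the other settings none by more than their error. Under at least 1 setting 15 of 37 liver genes and 12 of 36 stomach genes changed side. None of them was at 1.5-fold or more in the values with loess given above. On the other side Glud1 in stomach just passed 1.5-fold, at 0.59 with median centring. The scanner software's ratio gave a stomach median of -0.49 instead of -0.16 and 2 Cy5-high genes in stomach instead of 1. It also gave 1 gene at 2-fold in liver, Cy5-high. The added genes were Gls2 in stomach and Arg2 in liver. Each was well above background in Cy5 only on that array, so neither ratio is read. The brightest probe of a gene gave 2 genes at 2-fold in liver, 1 to each side, and a threshold of 1.5-fold gave 10 there (2 Cy5-high and 8 Cy3-high) and 2 Cy5-high in stomach. Asking for 4-fold left 3 of 10 lung genes, Gldc, Arg1 and Arg2, and no share of all genes at that limit is given here. The cause of these differences was not tested, apart from the thresholds, which are part of the counts. Over all genes, 2-fold calls in liver were 39 Cy5-high and 18 Cy3-high, against 541 and 420 with the scanner software's ratio and 110 and 7 with median centring. In stomach they were 221 and 358, against 1093 and 1049 and 1017 and 235. Signal over background limits Arg2 on both arrays, and Gls2, Hpd, Mat1a, Kmo, Agxt and Sds in stomach, whose scanner errors exceed 1 log2 unit.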
